A study of Homo sapiens with 12 samples.

Results

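The genes described here are 49 genes that cells use to divide: the mitotic kinases, the kinesin motors of the spindle, the proteins of the kinetochore and its checkpoint, the cytokinesis proteins, the transcription factors FOXM1 and MYBL2 that switch many of them on, and the proliferation genes MKI67 and TOP2A. They were taken by symbol from a list of genes with known roles in mitosis, and each matched 1 of the 54127 gene identifiers in the count files. The list was chosen with earlier results of these data known. Its shares beside those of all tested genes therefore describe the list and are not independent evidence. All 49 passed the filter on low counts, which left 14501 genes to test. RNA was sequenced from C4-2 cells, an androgen receptor positive human prostate cancer line derived from LNCaP. Cells received a pool of siRNAs at 50 nM against CHKA, the choline kinase that starts phosphatidylcholine synthesis (siCHKA, 6 libraries), or a nontargeting control pool (siNT, 6 libraries). Both groups were reverse transfected with Lipofectamine RNAiMAX in RPMI with 10% serum, so the siNT libraries share the transfection and differ from siCHKA in the sequence of the siRNA. The experiment asked how loss of CHKA alters the transcriptome of these cells.

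During mitosis the duplicated chromosomes are condensed, captured by spindle microtubules at their kinetochores, aligned and pulled apart. Kinases time these steps, a checkpoint holds the anaphase-promoting complex in check until every kinetochore is attached, and kinesins slide and shorten the microtubules. Most genes of this group are transcribed mainly late in the cell cycle and are near silent in resting cells, under the control of MuvB complexes that carry MYBL2 and FOXM1 in cycling cells and the repressive DREAM complex in resting ones.

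Every one of the 49 mitotic genes was lower after siCHKA at an adjusted P below 0.05 in edgeR's quasi-likelihood test, and none was higher. Across all tested genes 30.1% were lower and 32.1% were higher by the same rule. On the log2 scale their median change was -1.32, against 0.035 for all tested genes, and values ran from -2.18 for AURKB to -0.40 for BUB3. The fall was at least 2-fold for 41 of the 49, where 4.51% of all tested genes fell that far. Expressed as a share of the siNT mean, the 49 genes retained between 22.1% (AURKB) and 75.6% (BUB3), with a median of 40.2%. In all 49 the highest siCHKA library lay below the lowest siNT library, as it did for 21.5% of all tested genes. With groups of 6 this separation gives the smallest P an exact two-sided permutation test can reach, 0.00216. Bulk RNA cannot tell apart fewer dividing cells in a culture from less of each mRNA per cell.

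**Figure D1:**
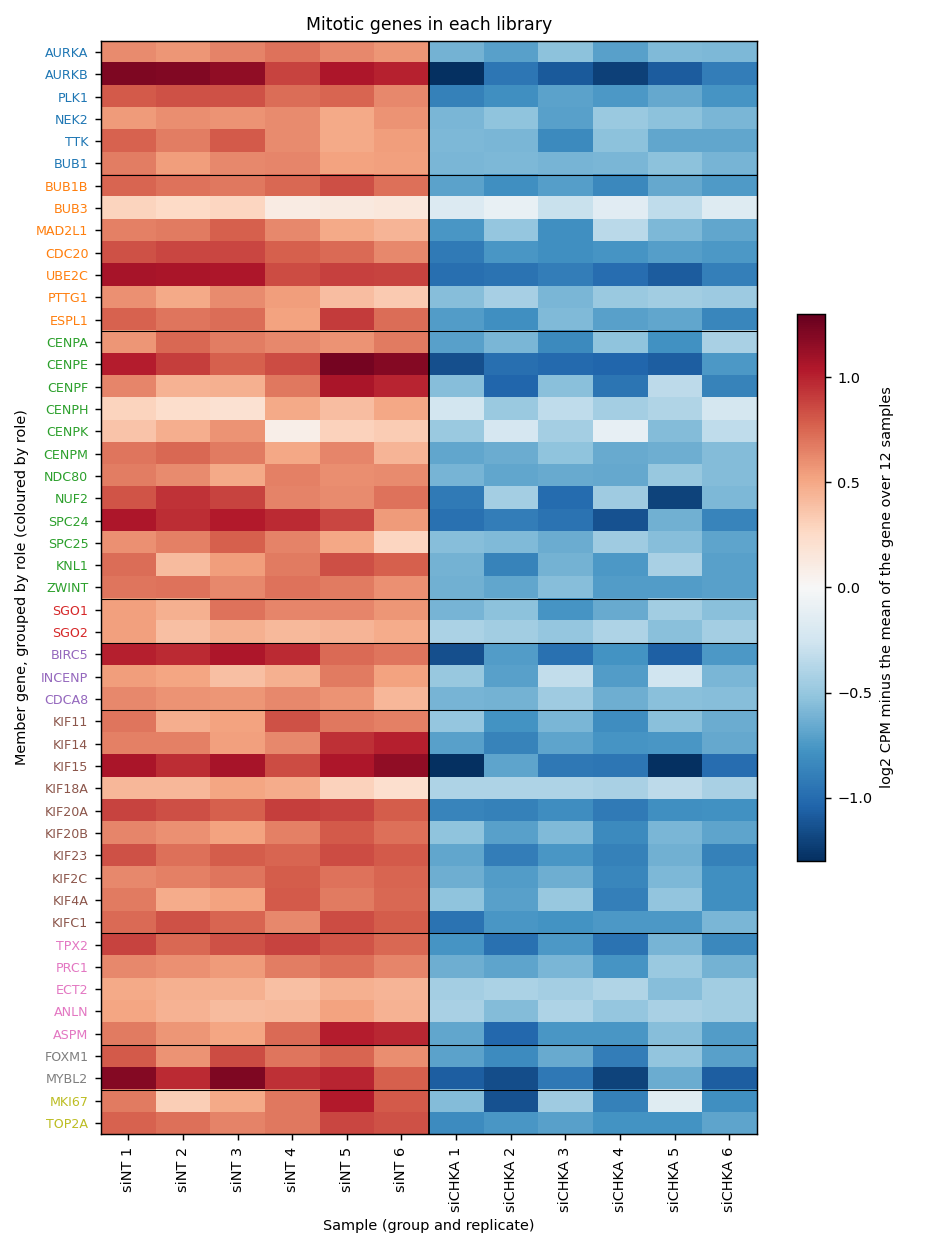
Relative level of the 49 mitotic genes (rows, grouped and coloured by role) in the 6 siNT and 6 siCHKA libraries (columns), as log2 CPM (reads per 1000000 reads of a library total adjusted by TMM, a scaling for library composition) minus the mean of each gene over the 12 libraries. All siNT columns are above the mean (red) and all siCHKA columns below it (blue), and the median over the 49 genes runs from 0.63 to 0.71 in siNT libraries and from -0.75 to -0.58 in siCHKA libraries.

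The libraries held between 10685184 and 24246055 reads on genes. The least read of the 49 genes in any library, KIF15, had 73 reads, so no value rested on a handful of reads. CHKA itself lay between 36.7 and 43.3 CPM in siNT and between 1.91 and 4.67 CPM in siCHKA libraries, a log2 fold change of -3.88 (SE 0.143, adjusted P = 5.89e-13, edgeR). All 9 luminal prostate genes examined were expressed (6 lower and 3 higher after siCHKA). The basal genes KRT5 and TP63, the leukocyte genes, most fibroblast genes and the endothelial gene CDH5 were near 0. The leukocyte list summed to 0.242 to 0.644 CPM after siCHKA and 0.373 to 0.784 CPM after siNT, with CD3E at 0 in every library. The fibroblast list summed to 24.2 to 30.6 CPM after siCHKA and 11.7 to 19.1 CPM after siNT, nearly all of it COL1A1, and its part in the results was not tested. Of 3 endothelial genes listed, 2 (VWF and CDH5) were matched in the files. They summed to 1.13 to 1.86 CPM after siCHKA and 2.05 to 3.65 CPM after siNT, nearly all of it VWF. The basal list summed to 1.57 to 2.10 CPM after siCHKA and 0.98 to 1.46 CPM after siNT, nearly all of it KRT14. The share of the summed counts of all lines assigned to no feature was 4.82% to 5.97% in siCHKA and 3.96% to 4.90% in siNT libraries. Among the siCHKA libraries, replicates 1, 3 and 5 differed from replicates 2, 4 and 6 by a chi-square per degree of freedom of 12.5 to 24.9 over gene counts, and by 4.05 to 9.50 and 2.39 to 4.09 within each set. Pairs of siNT libraries spanned 2.51 to 30.9, so control libraries differed from each other by as much. For the 49 genes and the 12 gene pairs tested below, values from each siCHKA set alone are given where they change a call or differ by over 1.5 times. Calls in the other gene lists also depended in part on the set. GEO names flow sorted cells without giving a gate, and the study's account of its RNA-seq names no sort of these cells. The study's legends speak of 6 biological replicates for one display of this experiment and of biological triplicate experiments for another. Neither the legends nor the labels say which libraries came from separate cultures, so P values measure the spread between these libraries.

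Promoters were examined for the short elements known from this class of genes. The cell cycle genes homology region (CHR), spelled TTTGAA or TTCGAA, is the site that MuvB complexes contact, and CCAAT is the site of NF-Y. RefSeq promoter windows of 300 bases, from 250 before the transcription start to 50 after it, were at hand for 39 of the 49 genes. A CHR was found on either strand in 29 of the 39 windows (74.4%), compared with 16.6% of 27305 promoters and 10.8% of the 10594 promoters of tested genes. TTTGAA alone stood in 27 and TTCGAA in 3. CCAAT was present in 31 of 39 windows (79.5%), against 35.7% of all promoters and 36.9% of those of tested genes. The E2F site GGCGGGAA stood in 2 of 39 (5.13%), which is near its share of 5.19% in tested genes (3.18% of all promoters). Both a CHR and a CCAAT stood in 24 of the 39 windows (61.5%), against 6.58% of all promoters and 4.59% of those of tested genes. Members of this list are in part known for these elements, so the shares describe the list and do not set it apart. The median log2 fold change was -1.31 over the 29 genes with a CHR and -1.55 over the 10 without, so the fall was not confined to promoters that hold these letters. The windows below belong to the kinase, kinesin and kinetochore gene with the lowest fold change, to CENPK, which fell least of the genes with a window, and to PLK1, shown because it holds both elements and chosen after its sequence was seen. Capitals mark a CHR or a CCAAT on either strand (TTCAAA and ATTGG are the reverse forms), sequences run 5′ to 3′ on the strand of the gene, and the build is GRCh38.p14. AURKB (chr17:8210176-8210475, minus strand) has 1 CCAAT in reverse and no CHR, KIF15 (chr3:44761544-44761843, plus strand) has 1 CHR in reverse, 35 bases before the start, and CENPE (chr4:103198294-103198593, minus strand) has no match to any of these letters. CENPK (chr5:65563119-65563418, minus strand) has 3 CCAAT and no CHR. PLK1 (chr16:23678639-23678938, plus strand) has a CCAAT 73 bases and a CHR 29 bases before the start.
AURKB: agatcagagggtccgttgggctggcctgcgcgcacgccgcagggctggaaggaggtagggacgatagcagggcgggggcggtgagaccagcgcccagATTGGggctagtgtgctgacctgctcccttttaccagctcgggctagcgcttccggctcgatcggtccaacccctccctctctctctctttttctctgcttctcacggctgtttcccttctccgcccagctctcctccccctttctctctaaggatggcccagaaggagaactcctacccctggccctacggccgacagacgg
KIF15: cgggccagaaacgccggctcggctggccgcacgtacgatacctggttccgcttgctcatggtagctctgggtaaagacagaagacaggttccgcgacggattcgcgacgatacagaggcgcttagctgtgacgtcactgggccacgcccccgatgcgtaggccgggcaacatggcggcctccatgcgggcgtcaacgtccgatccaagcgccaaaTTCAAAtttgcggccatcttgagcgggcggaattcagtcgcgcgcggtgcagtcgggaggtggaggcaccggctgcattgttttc
CENPE: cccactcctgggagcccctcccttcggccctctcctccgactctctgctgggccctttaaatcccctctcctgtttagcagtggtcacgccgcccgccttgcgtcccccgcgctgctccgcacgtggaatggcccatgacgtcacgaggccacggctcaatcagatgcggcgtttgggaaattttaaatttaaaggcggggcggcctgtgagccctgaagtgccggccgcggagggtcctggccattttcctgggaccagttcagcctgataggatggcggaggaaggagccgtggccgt
CENPK: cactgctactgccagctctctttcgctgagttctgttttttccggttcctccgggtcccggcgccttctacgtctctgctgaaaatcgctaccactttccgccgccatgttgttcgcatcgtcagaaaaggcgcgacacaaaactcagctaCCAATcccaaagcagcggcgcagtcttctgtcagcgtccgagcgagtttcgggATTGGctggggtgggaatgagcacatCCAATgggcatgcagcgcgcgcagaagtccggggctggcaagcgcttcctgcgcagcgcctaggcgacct
PLK1: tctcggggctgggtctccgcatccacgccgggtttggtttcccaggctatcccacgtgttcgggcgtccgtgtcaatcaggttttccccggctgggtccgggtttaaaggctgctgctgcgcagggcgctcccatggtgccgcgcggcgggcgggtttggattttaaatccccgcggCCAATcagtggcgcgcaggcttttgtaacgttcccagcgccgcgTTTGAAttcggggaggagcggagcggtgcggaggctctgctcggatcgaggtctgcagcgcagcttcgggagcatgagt

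All 6 mitotic kinases were lower by at least 2-fold. AURKB, the catalytic subunit of the chromosomal passenger complex that corrects faulty kinetochore attachments, measured 66.8, 77.8 and 84.3 CPM (lowest, median and highest library) after siNT and 14.7, 17.0 and 19.3 CPM after siCHKA. The highest siCHKA library was thus far below the lowest control. Its log2 fold change was -2.18 (SE 0.0765, adjusted P = 3.06e-13, edgeR), and 22.1% of the siNT mean remained. NEK2, a centrosome kinase that separates the spindle poles, changed least among the kinases, from 92.6, 98.8 and 101 CPM after siNT to 40.1, 44.5 and 47.1 CPM after siCHKA (log2 fold change -1.15, SE 0.0472). Between these lay PLK1, which drives mitotic entry and spindle assembly (-1.52), TTK, which starts the spindle checkpoint (-1.30), AURKA, which matures the centrosomes (-1.25), and BUB1, the kinase of the outer kinetochore (-1.18). The paralogs AURKA and AURKB did not fall by the same amount. The log2 ratio of AURKB to AURKA was -0.92 ± 0.17 (SD, n = 6) in siNT and -1.85 ± 0.16 (SD, n = 6) in siCHKA libraries, a further shift of -0.93 (exact two-sided permutation P = 0.00216, adjusted P = 0.00371 over 12 pairs). The 12 pairs were chosen with earlier results of these data known. Here and below, the P values of pair ratios therefore describe the chosen pairs and are not independent evidence.

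The 7 genes of the spindle checkpoint, of anaphase-promoting complex (APC/C) activation and of sister separation were all lower, 5 of them by at least 2-fold. UBE2C, the ubiquitin-conjugating enzyme of the APC/C, measured 90.2, 98.2 and 105 CPM after siNT and 23.6, 25.4 and 27.0 CPM after siCHKA (log2 fold change -1.94, SE 0.0565, adjusted P = 4.23e-14, edgeR). The siCHKA libraries of UBE2C lay close together and kept 26.1% of the siNT mean. BUB3, a WD-repeat protein of the checkpoint, was the least changed of all 49 genes. It stood at 249, 267 and 283 CPM after siNT and at 183, 205 and 217 CPM after siCHKA, which is 75.6% of the siNT mean (-0.40, SE 0.0544, adjusted P = 5.91e-06, edgeR). The groups were still fully apart for BUB3. BUB1B, the checkpoint protein that binds BUB3 and CDC20, fell far more (-1.49), and the log2 ratio of BUB1B to BUB3 moved from -0.46 ± 0.12 to -1.54 ± 0.15 (SD, n = 6 each, exact permutation P = 0.00216, adjusted P = 0.00371). MAD2L1, which sequesters CDC20, had a log2 fold change of -1.22. CDC20 (-1.57) and FZR1 are the alternative activators of the APC/C, in mitosis and in G1. FZR1, which is not among the 49, did not pass the test (-0.08, 31.6 CPM in siNT and 29.8 CPM in siCHKA), and the log2 ratio of CDC20 to FZR1 dropped by 1.49, the widest shift of the 12 pairs (exact permutation P = 0.00216, adjusted P = 0.00371). The separase ESPL1, the protease that cuts cohesin, was lower by more (-1.45) than its inhibitor securin, PTTG1 (-0.999). Their log2 ratio, PTTG1 over ESPL1, rose by 0.45 (exact permutation P = 0.00433, adjusted P = 0.00577). The rise was 0.35 with siCHKA replicates 1, 3 and 5 alone, where the adjusted P was 0.0519 by the same exact test, and 0.55 with replicates 2, 4 and 6.

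**Figure D2:**
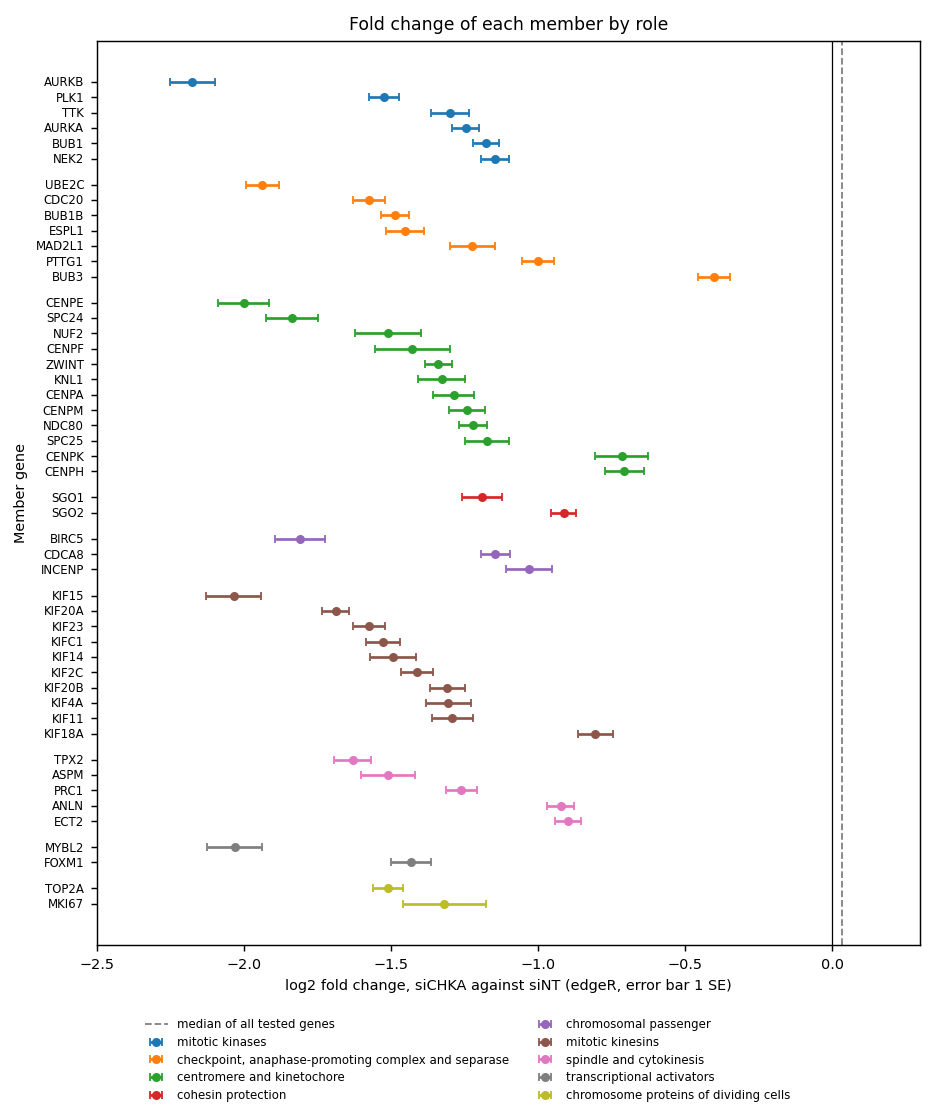
The log2 fold change (siCHKA against siNT, x axis) of each of the 49 mitotic genes, sorted within its role, where the bars are 1 SE from edgeR and the dashed line is the median of all tested genes at 0.035. Every gene lies left of 0, from AURKB at -2.18 to BUB3 at -0.40.

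The centromere and kinetochore group of 12 was lower throughout, 10 by at least 2-fold, with a median log2 fold change of -1.31. CENPE, a kinesin that moves chromosomes to the spindle equator, measured 108, 123 and 150 CPM after siNT and 28.4, 31.0 and 37.6 CPM after siCHKA (log2 fold change -2.00, SE 0.0869, adjusted P = 3.90e-12, edgeR). At the other end, CENPH and CENPK, subunits of the constitutive inner kinetochore, kept more than the rest. CENPH went from 55.6, 61.5 and 68.4 CPM to 34.6, 37.6 and 41.3 CPM (-0.71, SE 0.0658, adjusted P = 7.17e-08), and CENPK had a log2 fold change of -0.72. CENPM, also of the inner kinetochore, was lower by 1.24 on the log2 scale. CENPA, the histone H3 variant that marks the centromere, had a log2 fold change of -1.29, and CENPF, a large protein of the outer corona, one of -1.43. Of the 4 subunits of the NDC80 complex, which grips microtubule ends, SPC24 (-1.84) and NUF2 (-1.51) were lower than NDC80 (-1.22) and SPC25 (-1.17). The log2 ratio of NDC80 to SPC24 rose from 1.36 ± 0.20 to 1.96 ± 0.11 (SD, n = 6 each, exact permutation P = 0.00216, adjusted P = 0.00371), so the mRNAs of this 1 complex did not change in proportion. KNL1, the scaffold that recruits BUB1, had a log2 fold change of -1.33 and ZWINT, its partner, one of -1.34. A difference between CENPA and CENPF was not detected, their log2 ratio shifting by 0.14 with overlapping groups (exact permutation P = 0.504, adjusted P = 0.504).

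The shugoshins SGO1 and SGO2, which shield centromeric cohesin, were both lower. SGO1 stood at 21.8, 24.1 and 25.8 CPM after siNT and 9.26, 10.6 and 11.5 CPM after siCHKA (log2 fold change -1.19, SE 0.0677). SGO2 stood at 92.9, 97.0 and 103 CPM and at 48.7, 52.0 and 53.6 CPM (-0.91, SE 0.0435). Their ratio shifted by -0.27 (exact permutation P = 0.00649, adjusted P = 0.00779), a smaller gap than in the other pairs that passed. The noncatalytic partners of AURKB in the passenger complex are BIRC5 (survivin), INCENP and CDCA8 (borealin). BIRC5 went from 209, 253 and 269 CPM to 58.4, 70.6 and 78.2 CPM (log2 fold change -1.81, SE 0.0844, adjusted P = 9.28e-12, edgeR). INCENP, the scaffold, went from 90.7, 98.9 and 111 CPM to 41.8, 47.3 and 57.8 CPM (-1.03, SE 0.0783), and CDCA8 had a log2 fold change of -1.15. AURKB and BIRC5 therefore lost the most in this complex, and the log2 ratio of BIRC5 to INCENP decreased by 0.78 (exact permutation P = 0.00216, adjusted P = 0.00371). It decreased by 1.09 with siCHKA replicates 1, 3 and 5 alone and by 0.47 with replicates 2, 4 and 6, and passed the same test with either set (adjusted P = 0.0159 and 0.0286, exact permutation).

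**Figure D3:**
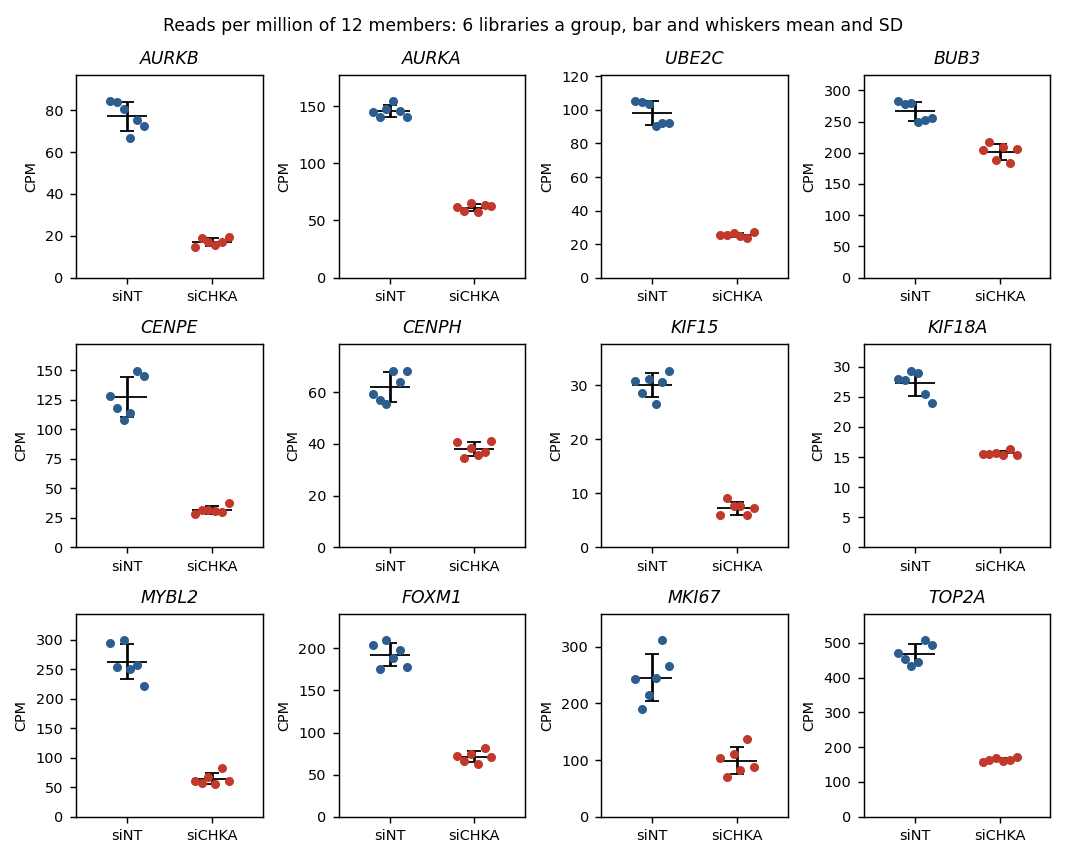
CPM (y axis, starting at 0) of 12 of the mitotic genes in the 6 siNT and 6 siCHKA libraries, where each point is a library and the bar and whiskers are the mean and SD. No siCHKA point reaches the lowest siNT point in any panel, and in BUB3 the highest siCHKA library is at 217 CPM and the lowest siNT library at 249 CPM.

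Of the 10 kinesins, 9 were lower by at least 2-fold. KIF15, which helps hold the spindle poles apart, had the lowest fold change, at 26.5, 30.7 and 32.7 CPM after siNT and 5.89, 7.48 and 9.05 CPM after siCHKA (log2 fold change -2.04, SE 0.0933, adjusted P = 7.50e-12, edgeR). KIF11 (Eg5), the main motor for pole separation with which KIF15 overlaps in function, changed less (-1.29), and the log2 ratio of KIF11 to KIF15 rose by 0.76 (exact permutation P = 0.00433, adjusted P = 0.00577). The rise was 1.01 with siCHKA replicates 1, 3 and 5 alone and 0.51 with replicates 2, 4 and 6. KIF18A, which damps chromosome movement at the plate, was the least changed kinesin, at 24.0, 27.9 and 29.4 CPM after siNT and 15.4, 15.6 and 16.3 CPM after siCHKA (-0.81, SE 0.0598, adjusted P = 4.03e-09). Its siCHKA libraries were almost equal. The kinesins of the midzone and of cytokinesis were KIF20A (-1.69), KIF23 (-1.58), KIF14 (-1.49), KIF20B (-1.31) and KIF4A (-1.31). The ratio of the relatives KIF20A and KIF20B changed by -0.38 (exact permutation P = 0.00216, adjusted P = 0.00371). The minus-end motor KIFC1, which bundles the poles, had a log2 fold change of -1.53 and KIF2C, which takes microtubules apart at the kinetochore, one of -1.41.

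The kinesin family outside the 49, which mostly carries cargo or serves cilia, was called lower or higher at shares near those of all tested genes. Falls of at least 2-fold were more frequent in it. Of these 27 kinesin genes, 23 were tested, 8 were lower (34.8%, against 30.1% of all tested genes), 7 were higher (30.4%, against 32.1%) and 8 did not pass, with a median log2 fold change of 0.035. The lowest were KIF7, a ciliary regulator of Hedgehog signalling (-1.47, 1.61 CPM in siCHKA and 4.47 CPM in siNT), and KIF18B, a spindle kinesin (-1.45). With KIF2A (-1.16), KIF22 (-1.07) and KIF24 (-1.06) they were the 5 of the 23 lower by at least 2-fold, where 4.51% of all tested genes fell that far. KIF9, an axonemal kinesin, was the highest (1.12, SE 0.0755, adjusted P = 1.07e-09, edgeR), followed by the endosome motor KIF16B (0.80). KIF5B, the conventional cargo motor (651 CPM in siNT and 579 CPM in siCHKA), did not pass (-0.17).

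All 5 genes of spindle assembly and cytokinesis were lower, 3 by at least 2-fold. TPX2, the activator of AURKA on the spindle, went from 270, 285 and 296 CPM to 81.9, 92.2 and 106 CPM (log2 fold change -1.63, SE 0.0624, adjusted P = 9.31e-13, edgeR). ECT2, the exchange factor that activates RhoA at the cleavage furrow, went from 403, 423 and 433 CPM to 209, 226 and 234 CPM (-0.90, SE 0.0443). ANLN, the actin-binding scaffold of the furrow, was similar to ECT2 (-0.92). The remaining pair were ASPM, a spindle pole protein (-1.51), and PRC1, which bundles midzone microtubules (-1.26).

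Both transcription factors were lower by at least 2-fold. MYBL2 (B-Myb) measured 222, 255 and 299 CPM after siNT and 55.9, 61.3 and 82.4 CPM after siCHKA (log2 fold change -2.03, SE 0.0935, adjusted P = 7.89e-12, edgeR). FOXM1 measured 176, 193 and 210 CPM after siNT and 62.5, 71.7 and 82.1 CPM after siCHKA (-1.43, SE 0.0665, adjusted P = 8.86e-12). The log2 ratio of MYBL2 to FOXM1 in CPM, which is not corrected for length, was 0.45 ± 0.09 in siNT and -0.15 ± 0.09 in siCHKA libraries (SD, n = 6 each), a shift of -0.60 (exact permutation P = 0.00216, adjusted P = 0.00371). TOP2A, the topoisomerase that untangles sister chromatids, stood at 433, 463 and 508 CPM after siNT and 157, 163 and 172 CPM after siCHKA (-1.51, SE 0.051, adjusted P = 2.04e-13). MKI67, which coats mitotic chromosomes and is the antigen Ki-67, had the widest SE of the 49, at 191, 245 and 312 CPM after siNT and 69.6, 95.5 and 137 CPM after siCHKA (-1.32, SE 0.141, adjusted P = 3.82e-07). The ratio of MKI67 to TOP2A did not pass (shift 0.17, exact permutation P = 0.303, adjusted P = 0.331).

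The remaining mitotic machinery was counted from further lists drawn up by function, with earlier results of these data known. Their shares are therefore descriptions and not independent evidence. Shares are of the tested genes in each list, beside 30.1% lower and 32.1% higher among all tested genes. Of 32 further kinetochore and centromere genes, 28 were lower (87.5%), 1 was higher (3.12%) and 3 did not pass, with a median of -0.84. The lowest were HJURP, the chaperone that deposits CENPA (-1.93), and SKA2, a microtubule coupler (-1.93), and the 2 at the other end were MAD2L1BP (-0.17) and CENPS (0.16, adjusted P = 0.0144, edgeR). CENPS was not called higher with siCHKA replicates 1, 3 and 5 alone. Of 35 further spindle and cytokinesis genes, 34 were tested, 31 were lower (91.2%) and 2 were higher (5.88%), with a median of -1.15. PIMREG (-2.20) and CDCA3 (-1.74) were the lowest, and NUMA1 (0.21) and HAUS2 (0.18) the highest. Neither NUMA1 nor HAUS2 was called higher with siCHKA replicates 2, 4 and 6 alone. The APC/C list, which held the subunits and also FZR1, FBXO5 and UBE2S, was mostly less altered than the activator CDC20 and the enzyme UBE2C. Of these 17 genes 9 were lower (52.9%), 3 were higher (17.6%) and 5 did not pass, with a median of -0.18. FBXO5, the APC/C inhibitor EMI1, was the lowest (-1.37), then the subunit CDC27 (-1.22), while ANAPC2 (0.22) and ANAPC16 (0.38) were higher. Of 13 cohesin genes 9 were lower (69.2%) and 1 was higher (7.69%), with a median of -0.44. CDCA5 (sororin), which locks cohesin on sister chromatids, fell more than any of the 49 (-2.34), followed by the acetyltransferase ESCO2 (-1.33), while PDS5B (-0.22) was close to 0 and ESCO1 (0.14) was the 1 higher. Of the 11 tested subunits of MuvB and DREAM complexes 9 were lower (81.8%) and 1 was higher (9.09%), with a median of -0.37. They ran from the MuvB subunits LIN9 (-1.36) and LIN54 (-0.97) to E2F5 (-0.22) and the dimerization partner TFDP2 (0.27).

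Levels between genes were compared per kilobase of exon (union of exons in GENCODE). In siNT libraries MYBL2 (94.6 CPM per kilobase), CDC20 (94.5), PTTG1 (81.1), TPX2 (78.8) and ZWINT (77.4) were the highest, and KIF15 (5.69), KIF18A (6.03), SGO1 (6.39) and CENPK (8.06) were the lowest. The order was gradual, with overlapping siNT ranges in 47 of the 48 neighbouring pairs. All 49 were above the middle of the expression range, the lowest, KIF15, at the 53.1 percentile of tested genes with a length. After siCHKA the order changed at the top, where ECT2 (41.0 CPM per kilobase) and PTTG1 (40.6) stood above CDC20 (31.8) and MYBL2 (23.2). The size of the fall did not track the level: Spearman's rho between siNT level per kilobase and log2 fold change was -0.14 across the 49 genes, which are not independent replicates and share the same libraries.

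The siCHKA libraries were not alike in every gene. For 19 of the 49 the values of siCHKA replicates 1, 3 and 5 did not overlap those of replicates 2, 4 and 6, a share of 38.8%, where 47.5% of all tested genes were apart in the same way. The split was thus no more frequent in the mitotic genes than elsewhere in these libraries. In 14 of these the first set was higher (BUB1B, CENPF, KNL1, INCENP, KIF11, KIF20B, KIF23, KIF2C, KIF4A, TPX2, ANLN, FOXM1, MYBL2 and MKI67) and in 5 it was lower (BUB3, CENPA, CENPK, NUF2 and BIRC5). The share of all tested genes in each direction was not counted, so no background stands beside this split. MKI67 was at 103, 111 and 137 CPM in replicates 1, 3 and 5 and at 69.6, 83.2 and 87.7 CPM in replicates 2, 4 and 6. NUF2 went the other way, at 27.9, 26.4 and 22.8 CPM and at 38.9, 38.3 and 35.1 CPM. Both sets nevertheless lay below every siNT library. Fitted separately against siNT, MKI67 gave -1.07 and -1.62, CENPF -1.21 and -1.69, INCENP -0.88 and -1.20, BIRC5 -1.97 and -1.67, and NUF2 -1.80 and -1.28, and all 49 genes were called lower with either set. The median over the 49 genes was -1.30 with replicates 1, 3 and 5 and -1.40 with 2, 4 and 6, and the gap between the sets was at most 0.55 for any gene. Across the 49 genes the difference between the sets had a Spearman's rho of 0.29 with exon length, and over 13962 tested genes with a length of 0.24. These sets were defined from the libraries, and the GEO labels do not name them. The pair ratios of CENPA to CENPF and of MKI67 to TOP2A depended on the set used: the first moved by -0.23 (adjusted P = 0.262, exact permutation) or 0.50 (adjusted P = 0.039), the second by 0.46 (adjusted P = 0.0159) or -0.11 (adjusted P = 0.393).

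**Figure D4:**
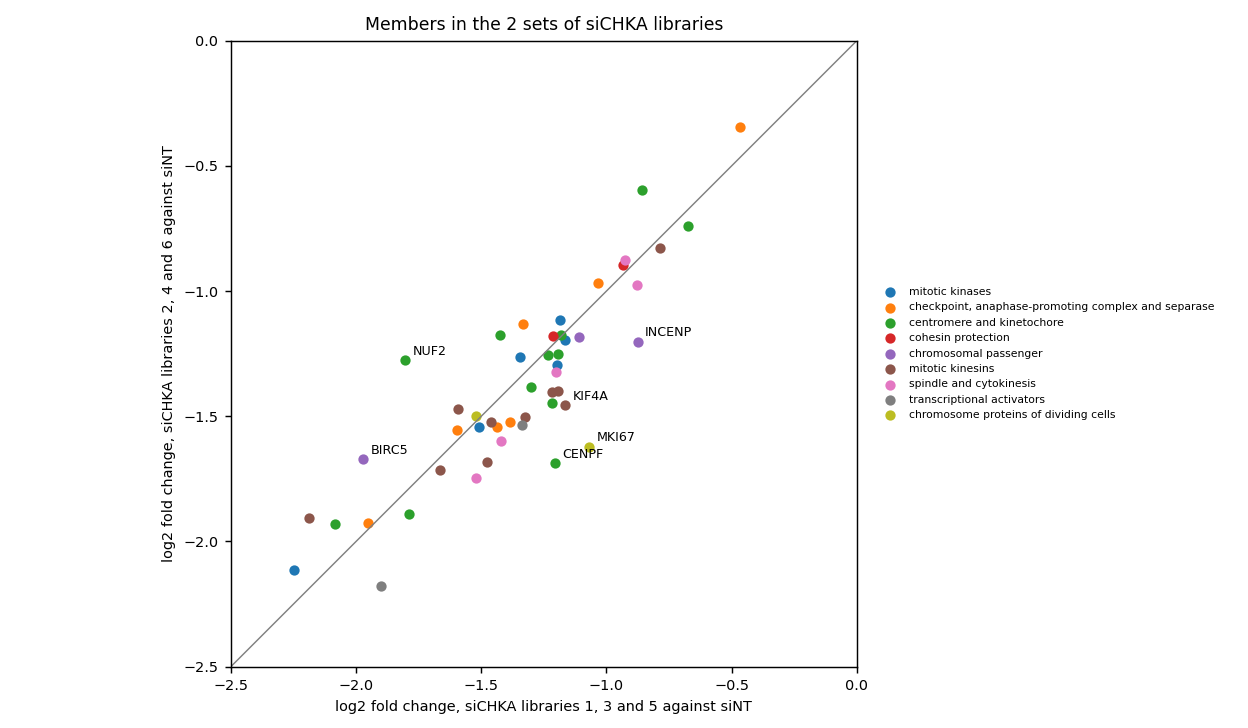
The log2 fold change of each of the 49 mitotic genes against siNT from siCHKA libraries 1, 3 and 5 (x axis) and from libraries 2, 4 and 6 (y axis), coloured by role, with a line of equality. All points are below 0 on both axes, and the 6 named genes, with NUF2 and BIRC5 above the line and MKI67, CENPF, INCENP and KIF4A below it, have the widest gaps, up to 0.55.

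Some of these genes have near-identical copies or overlapping neighbours, and reads shared between them are dropped by the counting. For 10 of the 49, 14 copies named after them were in the files, and the largest, CDC20P1, reached 5.37 CPM in siNT and 1.67 CPM in siCHKA libraries beside 190 and 63.9 CPM for CDC20. Exon bases shared with another annotated gene made up 34.3% of PRC1 (with PRC1-AS1), 15.9% of FOXM1 (ITFG2), 15.8% of SGO1 (SGO1-AS1) and 14.0% of KIFC1 (RPL12P1), and their values are less certain because the sources used here do not state whether strand was used.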

How the data were processed

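Per the labels, RNA was isolated with a miRNeasy kit, whereas the study's supplementary methods name an Allprep kit. Libraries were made with a TruSeq RNA kit; reads of 40 bases were aligned to GRCh37 with TopHat2 2.0.4 and counted per Ensembl gene with HTSeq 0.5.3p9 by the authors, and DESeq 1.10.1 is also listed. The deposited values are raw counts, in 4 files per library, which were summed. Lines naming no gene (33.9% to 39.0% of the summed counts of all lines) were left out. Symbols and GRCh38 exon lengths came from GENCODE 44 (82.8% of identifiers matched). Counts were TMM-normalized and tested with edgeR 4.0.16 (quasi-likelihood, filterByExpr, Benjamini-Hochberg over all tested genes, threshold 0.05). CPM are TMM-adjusted, and log2 CPM used a prior count of 2. Ratios of 12 gene pairs were tested by exact two-sided permutation with Benjamini-Hochberg adjustment. The 49 genes, the pairs and the lists were chosen with earlier results of these data known. Named genes follow a rule: all 49, the lowest and highest of each role by library (lowest, median, highest), and the 2 lowest and 2 highest that passed in each other list. KIF2A, KIF22, KIF24, KIF5B, UBE2S and FZR1 were added to these. The fits were run on simulated counts in which 195 of 14358 genes changed 2-fold, and edgeR recovered 190 with 7 false calls. The simulation changed far fewer genes than were called here and gave all genes the same relative spread. It therefore checks the code and not the calls in these libraries. Alternatives were another normalization (RLE), DESeq2 1.42.0, other filters, a fold minimum, 1 count file per library, a replicate block, library sets and each library left out. Same-numbered libraries were not paired.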

Additional observations from a re-analysis of the deposited data

Results flagged for a closer look

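Each of the 49 mitotic genes, and the median over them, was examined in both groups for a library far from the other 5, as the gap to the nearest library divided by the range of the group. Of 100 groups of 6, 6 had such a library, where chance gives about 1 in 20. BUB1 was highest in siCHKA replicate 5 (gap 0.727 of the range, log2 CPM 6.14 against 6.06 to 6.08 in the others), and KIF18A likewise (gap 0.728, 4.04 against 3.95 to 3.98). ECT2 was lowest in the same library (gap 0.639, 7.71 against 7.81 to 7.87). In siNT replicate 6, SPC24 (gap 0.635, 5.11 against 5.43 to 5.61) and CDCA8 (gap 0.751, 6.38 against 6.53 to 6.57) were lowest, and in siNT replicate 3 NDC80 was lowest (gap 0.671, 6.70 against 6.82 to 6.88). All 6 genes kept their direction and stayed past the threshold with any 1 library left out.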

How the results depend on the processing

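All 49 mitotic genes were lower, and 0 higher, under each of the 20 alternative fits (RLE normalization, DESeq2, no filter, at least 10 reads in every sample, 1 count file per library, a replicate block, either siCHKA set and each library left out), and the 980 gene values kept direction and side of the threshold. BUB3 ranged from -0.47 to -0.34. The median log2 fold change of the 49 was between -1.36 and -1.29 with 1 library left out, and -1.40 with siCHKA replicates 2, 4 and 6 alone. Among all tested genes, leaving 1 library out gave 4221 to 4402 lower and 4435 to 4596 higher, and requiring a 2-fold change gave 654 and 785. Same-numbered libraries did not deviate together (correlations -0.40 to 0.32, 1 of 6 closest to its own number). With the replicate block 49 were lower with a median of -1.32, and the ratio tests in same-numbered pairs changed no call. With siCHKA replicates 1, 3 and 5 alone, PTTG1 over ESPL1 shifted by 0.35 (no longer past the threshold), CENPA over CENPF by -0.23 (turned) and MKI67 over TOP2A by 0.46 (now past). With replicates 2, 4 and 6 the last 2 shifted by 0.50 (now past) and -0.11 (turned). BIRC5 over INCENP (-1.09 and -0.47) and KIF11 over KIF15 (1.01 and 0.51) passed with either set but differed in size. The cause was not tested. In the 6 other lists, where 1 to 7 genes per list were higher, some of these calls were lost without a filter, with 1 count file or with 1 siCHKA set, and at a 2-fold minimum only KIF9 was left higher. Per-gene SEs of 0.0429 to 0.141 limit what smaller differences can show.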
